A study of Mus musculus with 3 samples.

Results

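The glycosyltransferases that build and cap mucin-type O-glycans were examined in IEC sorted from small intestinal organoids (SIO) after co-culture with ILC3. Members were the protein-coding genes of the count table whose symbols belong to the Galnt, C1galt1, Gcnt, B3gnt, B3galt, B4galt, Fut, St3gal and St6gal families, with 1 fucosyltransferase left out by the selection rule. This gave 66 gene identifiers with 65 symbols, among 35824 genes in the table and 21718 protein-coding genes. The selection used names only and no expression value.

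There were 3 libraries, all of the same condition, IEC + ILC3, named A, B and C. Organoids came from female CD45.1 C57BL/6 mice, aged 6 to 8 weeks by the labels and given as C57BL/6J B6.SJL in the study's methods, and ILC3 were purified from the small intestinal lamina propria of GFP reporter mice on a C57Bl/6J background. After 4 days of co-culture in organoid medium with IL-2, IL-7 and IL-15, IEC were isolated by FACS as EpCAM+ CD45- cells, and libraries were prepared by SMART-Seq2. The labels call the libraries biological replicates, and mark A and B as included in the final analysis and C as excluded, for which the sources used here give no reason. Libraries of IEC ONLY cultures are not analysed here, and no effect of ILC3 can be read from these values. Nothing in the labels says that the libraries came from separate mice, so the p-values measure only the spread between these libraries. For C, a single library, no spread of its own could be estimated. The tests below took the spread from A and B, with information shared over all genes tested.

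Mucins, the gel-forming and surface glycoproteins of the gut, carry dense O-glycans that start with N-acetylgalactosamine (GalNAc) on serine or threonine. Polypeptide GalNAc-transferases add this first sugar in the Golgi, the core 1 synthase adds galactose to it or the core 3 synthase adds N-acetylglucosamine (GlcNAc), and the core 2 and core 4 enzymes branch these cores. Chains are then lengthened with galactose and GlcNAc and capped with sialic acid or fucose. Several families reach beyond mucins, since some of their members act on N-glycans, glycolipids or the linker of proteoglycans.

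Of the 66 members, 43 had 10 counts or more in at least 1 library, 6 had between 1 and 9 counts at most, and 17 were listed at 0 in all 3. Members at 0 made up 25.8% of the set, against 31.2% (6781 of 21718) of protein-coding genes. In 34 members each library held 10 counts or more. The set took 0.268%, 0.218% and 0.259% of the total in A, B and C. Levels of different genes are compared below only as depth-scaled counts (CPM) divided by the median length in kilobases of the protein-coding transcripts. On that scale the set summed to 965 in A, 776 in B and 936 in C, or 870 ± 134 (SD, n = 2) over A and B and 892 ± 102 (SD, n = 3) with C. Counting error for a gene at 0 allows up to 3 counts, or 0.166, 0.13 and 0.105 CPM in the respective libraries. Of the members with a count, 24 share exon bases with another gene, so their estimated counts depend on how reads were divided. B4galt3 shares 14.5% of its exon bases with Ppox on the opposite strand, a gene of 807, 936 and 828 counts. B3gnt9 shares 16.5% with D230025D16Rik, also on the opposite strand, at 517, 435 and 457 counts.

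Of the 12 genes that led an enzyme group or changed in C, 8 had a RefSeq promoter window and 2 of these touched no exon of GENCODE M21, those of Galnt6 and B3gnt3, the most abundant GalNAc-transferase and the most abundant GlcNAc-transferase of the set. They are shown because both genes led their groups and no other of these windows was free of annotated exons. The 250 bases before the RefSeq start are given from 5′ to 3′ on the strand of the gene in GRCm38.p6, Galnt6 at chr15:100729377-100729626 and B3gnt3 at chr8:71701801-71702050, both on the minus strand, with GC boxes (GGGCGG on either strand) in capitals.
Galnt6: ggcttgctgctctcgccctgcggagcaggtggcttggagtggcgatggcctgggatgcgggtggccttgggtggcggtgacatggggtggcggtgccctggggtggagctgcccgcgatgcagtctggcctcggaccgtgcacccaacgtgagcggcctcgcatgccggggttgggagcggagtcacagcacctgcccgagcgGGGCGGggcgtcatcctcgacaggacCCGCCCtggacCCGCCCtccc
B3gnt3: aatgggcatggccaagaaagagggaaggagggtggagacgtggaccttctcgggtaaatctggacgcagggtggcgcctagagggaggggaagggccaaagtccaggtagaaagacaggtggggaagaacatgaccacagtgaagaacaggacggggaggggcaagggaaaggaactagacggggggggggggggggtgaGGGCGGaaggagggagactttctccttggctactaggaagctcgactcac

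The printed window of Galnt6, 1 of 2 for this gene, held 3 GC boxes with 72.8% G and C. That of B3gnt3 held 1 with 60% G and C. A GC box was found in 48.5% of the 68 member windows, which cover 48 of the 65 symbols, and in 32.7% of all 32851 windows. The letters TATAAA stood in 1 member window (1.47%) and in 12.4% of all windows. The letters CCAAT were in 27.9% of member windows against 33.8%, and CAGCTG in 13.2% against 13.0%, each searched on both strands. Median G and C content was 59.4% in member windows and 52.4% in all. These motif matches are descriptions of letters, not of factor binding.

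In the summed level per kilobase, the α2,3-sialyltransferases stood first, at 381 in A, 247 in B and 370 in C. The polypeptide GalNAc-transferases came next with 183, 158 and 200. Neither group overlapped the other or any group below it in any library. The β1,4-galactosyltransferases, at 88.3, 101 and 92.1, and the β1,3-GlcNAc-transferases, at 80.0, 77.2 and 95.9, overlapped each other. Branching enzymes of the Gcnt family gave 69.1, 53.0 and 52.2, fucosyltransferases 58.1, 47.3 and 35.7, and the core 1 pair 61.2, 39.7 and 51.2. The ranges of these 3 groups overlapped over the libraries. Within each library the Gcnt family stood first of the 3, by little in C, and the other 2 changed order between libraries. The α2,6-sialyltransferases, at 26.9, 33.9 and 27.8, and the β1,3-galactosyltransferases, at 17.3, 18.8 and 10.7, were lowest, and these 2 did not overlap.

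**Figure D1:**
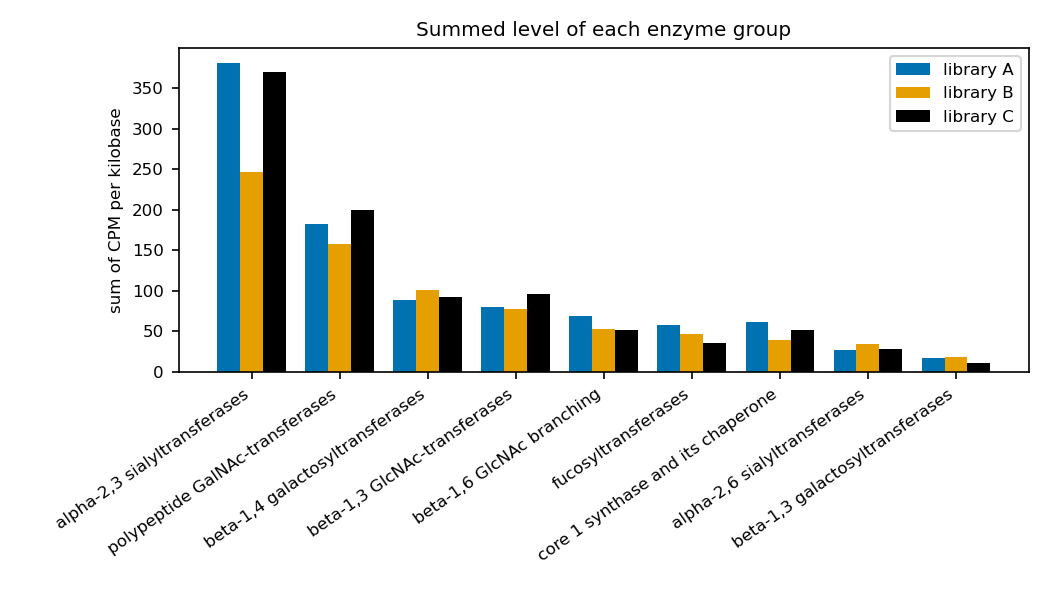
Bars give the sum of CPM per kilobase of transcript for each of the 9 enzyme groups in libraries A, B and C, with 1 bar per library and therefore no error bar. The α2,3-sialyltransferases reach 381, 247 and 370, above every other group in each library, and B holds the lowest bar of that group.

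Initiation was spread over many GalNAc-transferases. Of 17 members, 11 had 10 counts or more in a library, 4 (Galnt13, Galnt14, Galnt15 and Galnt16) stayed under 10, and Galnt9 and Galnt17 were listed at 0. Galnt6, a member known from glandular epithelium, led at 47.4 CPM per kilobase in A, 48.2 in B and 55.6 in C, or 47.8 ± 0.578 (SD, n = 2). Its levels nearly coincided in A and B, with C slightly above both, and it made up 25.9%, 30.5% and 27.8% of the group. Galnt12, known from colonic mucosa, followed at 24.0, 21 and 19.8 CPM per kilobase, and Galnt10, which prefers peptides that already carry a GalNAc, at 22.7, 16.6 and 29.0. For Galnt12 the 3 libraries lay close together, while Galnt10 was lowest in B and highest in C. Between the leaders, only Galnt6 stood clear of all other GalNAc-transferases in every library.

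The core 1 synthase C1galt1 depends on C1galt1c1, an endoplasmic reticulum chaperone also called Cosmc that folds it. C1galt1c1 was at 57.7 CPM per kilobase in A, 37.5 in B and 48.1 in C, and C1galt1 at 3.44, 2.25 and 3.15. The chaperone message thus exceeded that of its enzyme 16.8-fold, 16.6-fold and 15.3-fold in the 3 libraries, and both were lowest in B. C1galt1 has a median transcript length of 6092 bases and C1galt1c1 one of 1449 bases, so the size of this ratio rests on the length used. The competing core 3 synthase B3gnt6, which starts the other main O-glycan core of the gut, was listed at 0 in all 3 libraries.

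Branching was led by Gcnt3, the mucin-type enzyme that makes core 2 and core 4, at 44.5 CPM per kilobase in A, 32.1 in B and 33.8 in C. Gcnt4, another core 2 enzyme, had 13.8, 12.9 and 8.11, and Gcnt2, which forms the I branch of poly-N-acetyllactosamine, 10.7, 7.62 and 10.3. Gcnt3 therefore made up 64.4%, 60.5% and 64.7% of the family and did not overlap the others. Gcnt1, the core 2 enzyme best known from leukocytes, was 1 of the 17 members listed at 0. The lymphocyte gene Ptprc (CD45) held 1 count in A and 0 in B and C. A link between the absence of Gcnt1 and that of lymphocytes was not tested.

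Among the chain-extending GlcNAc-transferases, B3gnt3, which extends core 1, was at 50.2 CPM per kilobase in A, 54.2 in B and 72.2 in C. B3gnt2, the main poly-N-acetyllactosamine synthase, was at 16.9, 14.9 and 14.6, and B3gnt7, linked to keratan sulphate chains, at 10.1, 7.51 and 7.92. B3gnt3 was highest in C and made up 62.7%, 70.2% and 75.3% of the group. B3gnt4 was listed at 0 and B3gnt8 reached 8 counts at most. Exons of B3gnt2 overlap those of Gm28048 on the same strand over 58.6% of their bases, and Gm28048 was listed at 0 in each library.

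On the mean of A and B, galactosyltransferases of the β1,4 family, which complete N-acetyllactosamine, were led by 3 members of close levels. B4galt1, the enzyme also found in lactose synthase, had 23.5 CPM per kilobase in A, 30.6 in B and 24.0 in C. B4galt4, which also acts on sulphated GlcNAc, had 23.0, 29.2 and 16.3, and B4galt3 had 20.3, 27.1 and 20.6. All 3 were highest in B, and their ranges over the libraries overlapped. Within each library B4galt1 stood first, while B4galt4 and B4galt3 changed places in C. There B4galt7, at 18.1, also exceeded B4galt4. B4galt2 was listed at 0. Of the β1,3 family, B3galt6, a proteoglycan linker enzyme, was at 5.79, 8.60 and 3.12, B3galt5, which makes type 1 chains, at 5.0, 8.04 and 5.39, and B3galt4, a ganglioside enzyme, at 6.39, 2.11 and 2.14. No order among these 3 held in every library, and without the correction for length or in C alone B3galt5 stood first. B3galt1 was listed at 0.

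The highest level of any member was that of St3gal4, on the minus strand at chr9:35046576-35119268, which adds α2,3-linked sialic acid mainly to N-acetyllactosamine chains. It reached 296 CPM per kilobase in A, 174 in B and 284 in C, or 235 ± 86.5 (SD, n = 2), and was lowest in B. St3gal6, an enzyme of similar preference, followed at 77.2, 62.9 and 76.3, and St3gal3 was at 6.20, 7.23 and 9.88. St3gal4 held 77.8%, 70.4% and 76.7% of the group and exceeded St3gal6 3.84-fold, 2.77-fold and 3.72-fold. St3gal2 and St3gal5, the latter being the GM3 ganglioside synthase, were listed at 0. The counting is not stated to use strand, and exons of St3gal6 share 26.0% of their bases with Dcbld2 on the opposite strand, a gene of 99, 208 and 301 counts.

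In the α2,6 group nearly all signal lay in St6galnac2, which sialylates the GalNAc of core 1, at 25.7 CPM per kilobase in A, 32.7 in B and 25.4 in C. That was 95.4%, 96.4% and 91.4% of the group. A shorter second identifier of the same symbol, which shares 383 exon bases with it, held 19, 40 and 19 counts, and the split of reads between these 2 is uncertain. St6galnac1, the sialyl-Tn enzyme, reached 10 counts at most. St6gal1, the main α2,6-sialyltransferase of N-glycans, was listed at 0, as were St6gal2, St6galnac3 and St6galnac6, and St6galnac5 held 1 count in A alone.

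Of 7 fucosyltransferases, Fut8, which adds core fucose to N-glycans, led at 51.7 CPM per kilobase in A, 39.4 in B and 34.0 in C. Fut11 was at 4.61, 3.95 and 1.67. Fut1, which makes the H antigen by adding α1,2-linked fucose, was at 1.82, 3.93 and 0. All 3 were lowest in C. Fut4, Fut7 and Fut9, which fucosylate GlcNAc to form Lewis x structures, were listed at 0 together with Fut10.

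**Figure D2:**
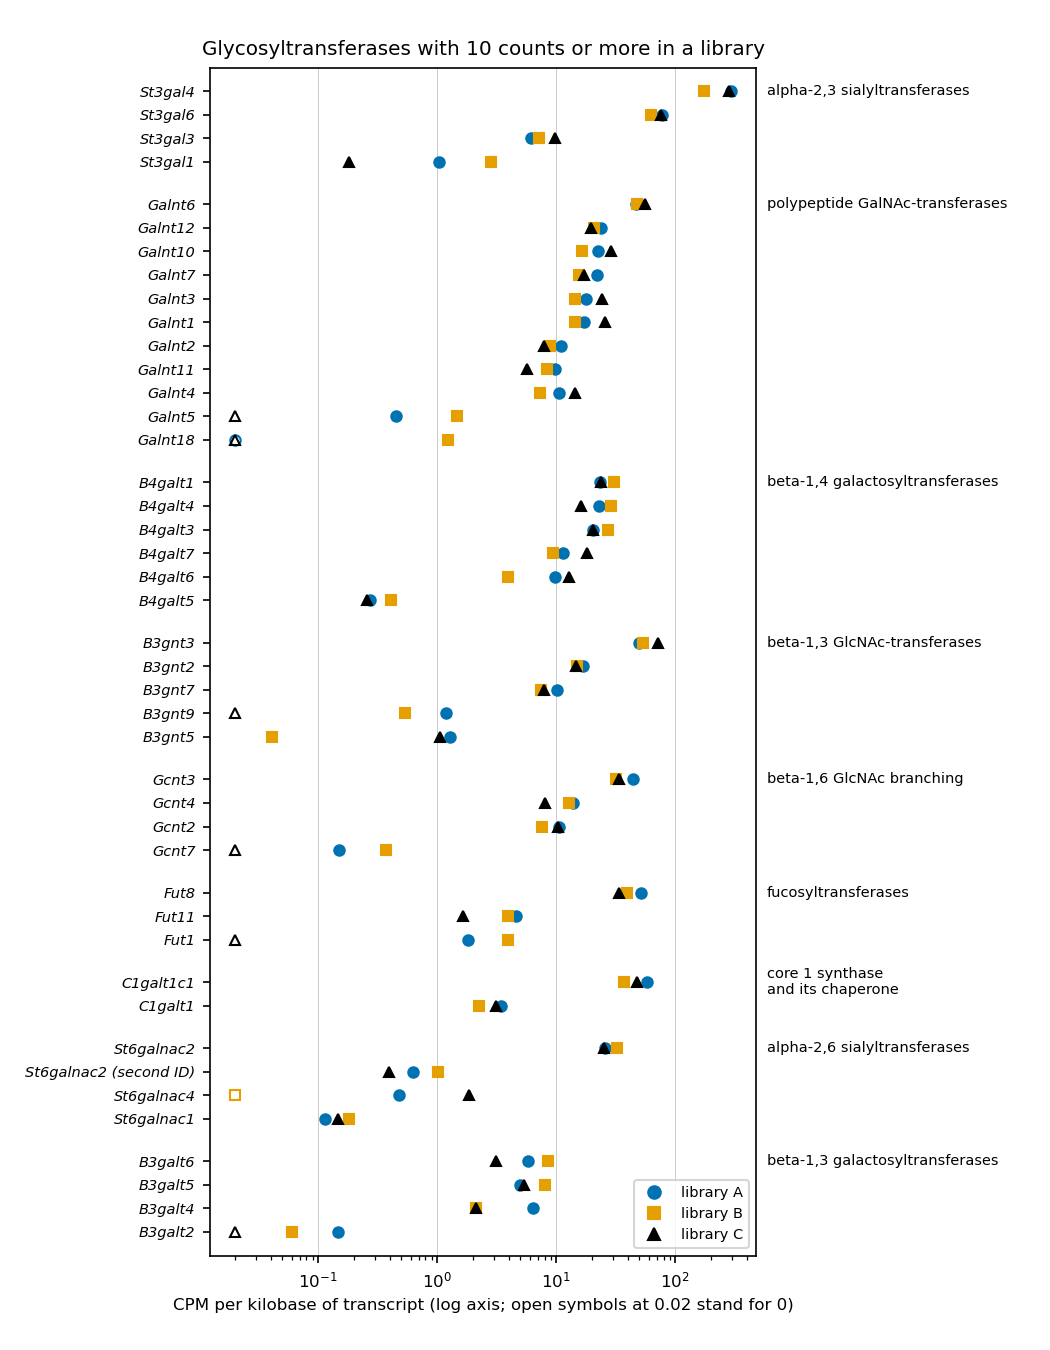
Each row is 1 of the 43 members with 10 counts or more in a library, and the 3 symbols give CPM per kilobase of transcript in libraries A, B and C on a log axis, with open symbols for 0. St3gal4 lies furthest to the right, between 174 and 296, and the widest gaps between libraries are among members under 4 CPM per kilobase.

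The 3 libraries held 17946361, 23142849 and 28913885 counts, and 12549, 12964 and 11986 genes reached 10 counts. The epithelial markers Epcam, Cdh1, Krt8, Krt18 and Cldn7 summed to 8746, 9763 and 9778 CPM, Ptprc held at most 1 count and fibroblast collagens at most 1. Of the 9 ILC3 and lymphocyte markers, 5 were at 0 in all 3 libraries, Il22, Ncr1, Cd3e, Gata3 and Il2rg. The list was not silent, as 2 markers held 10 counts or more and its sum was 45.6, 37.5 and 33.0 CPM. Library C stood apart: of 10958 genes with 100 counts or more in A and B together, 248 (2.26%) were at 0 in C, whereas 47 genes were at 0 in A and 51 in B by the same criterion.

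To ask whether C differed in these enzymes, the quasi-likelihood test of edgeR set it against A and B over 13604 genes, with 1 residual degree of freedom per gene, so the result concerns these libraries and not a condition. Of the 43 members tested, 3 passed an adjusted p of 0.1 as lower in C, Fut1, Galnt5 and St3gal1, and 0 as higher. The background was 5.2% of all genes lower and 1.36% higher, which leaves the members' share of lower calls near that of the table. At an unadjusted p under 0.05, edgeR gave 8 members lower and 1 higher, Galnt1, named after its value was seen, where 14% of all genes were lower and 8.25% higher by the same measure. DESeq2 called 4 members lower and 0 higher, against a background of 9.17% lower. The median log2 fold change was -0.18 over members, also with the 6 members at 0 in C set to their bound, and -0.10 over all genes.

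Fut1, at chr7:45617289-45621059 on the plus strand, had 61, 168 and 0 counts in A, B and C. Every count therefore came from A and B, and C lay at least 50.8-fold under their mean, taking 3 counts as its limit (fitted log2 fold change -9.96, SE 1.93, adjusted p = 0.0457 from edgeR). The call was lost once a trend with transcript length was removed, with a fitted log2 fold change of -10.04 (adjusted p = 0.106 from edgeR). It was kept with a GC trend removed (adjusted p = 0.0652 from edgeR) and in the Wald test of DESeq2 (adjusted p = 0.00196).

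Galnt5, a GalNAc-transferase on the plus strand at chr2:57997884-58045860, had 33, 137 and 0 counts in A, B and C. The decrease in C was at least 37.0-fold (fitted log2 fold change -9.50, SE 2.28, adjusted p = 0.0757 from edgeR). Most of its counts came from B. As with Fut1, removal of the length trend ended the call while the fitted log2 fold change was -9.42 (adjusted p = 0.139 from edgeR). The call was kept with a GC trend removed (adjusted p = 0.0909 from edgeR) and in the Wald test of DESeq2 (adjusted p = 0.00638).

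St3gal1, at chr15:67102875-67176830 on the minus strand, caps core 1 with α2,3-linked sialic acid and was the only one of the 3 with counts in every library. Its level was 5.19, 14.2 and 0.907 CPM in A, B and C, from 94, 329 and 26 counts. C lay below both other libraries, which differed among themselves (log2 fold change -3.41, SE 0.94, adjusted p = 0.0998 from edgeR). This value sits at the threshold, and the call was lost with DESeq2 size factors (0.113), with the length trend removed (0.17) and with a GC trend removed (0.116), all adjusted p from edgeR. It was kept in edgeR with no filter (adjusted p = 0.00303) and with 10 counts in every library (adjusted p = 0.0605). The Wald test of DESeq2 also kept it (adjusted p = 0.0129).

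The lower calls were thus of members of low level, under 4 CPM per kilobase in every library. Besides Fut1 and Galnt5, B3gnt9, B3galt2, Gcnt7 and Galnt18 were at 0 in C, making 6 of 43 tested members against 8.03% (1092 of 13604) of all genes tested. These 4, named after their values were seen, had 52, 25, 6 and 0 counts in A and 30, 13, 19 and 73 in B, and none passed the edgeR test. B3gnt9 passed under DESeq2 (adjusted p = 0.0386). Among the leaders of the 9 groups, the fitted log2 fold changes ran from -1.20 for B3galt6 to 0.47 for B3gnt3, with adjusted p-values from edgeR of 0.189 and 0.341. Fut8 had -0.42 (SE 0.31), Gcnt3 -0.18 (SE 0.32), St3gal4 0.27 (SE 0.36), Galnt6 0.22 (SE 0.28) and C1galt1c1 0.01 (SE 0.34). A p that misses the threshold does not show that these levels were alike.

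**Figure D3:**
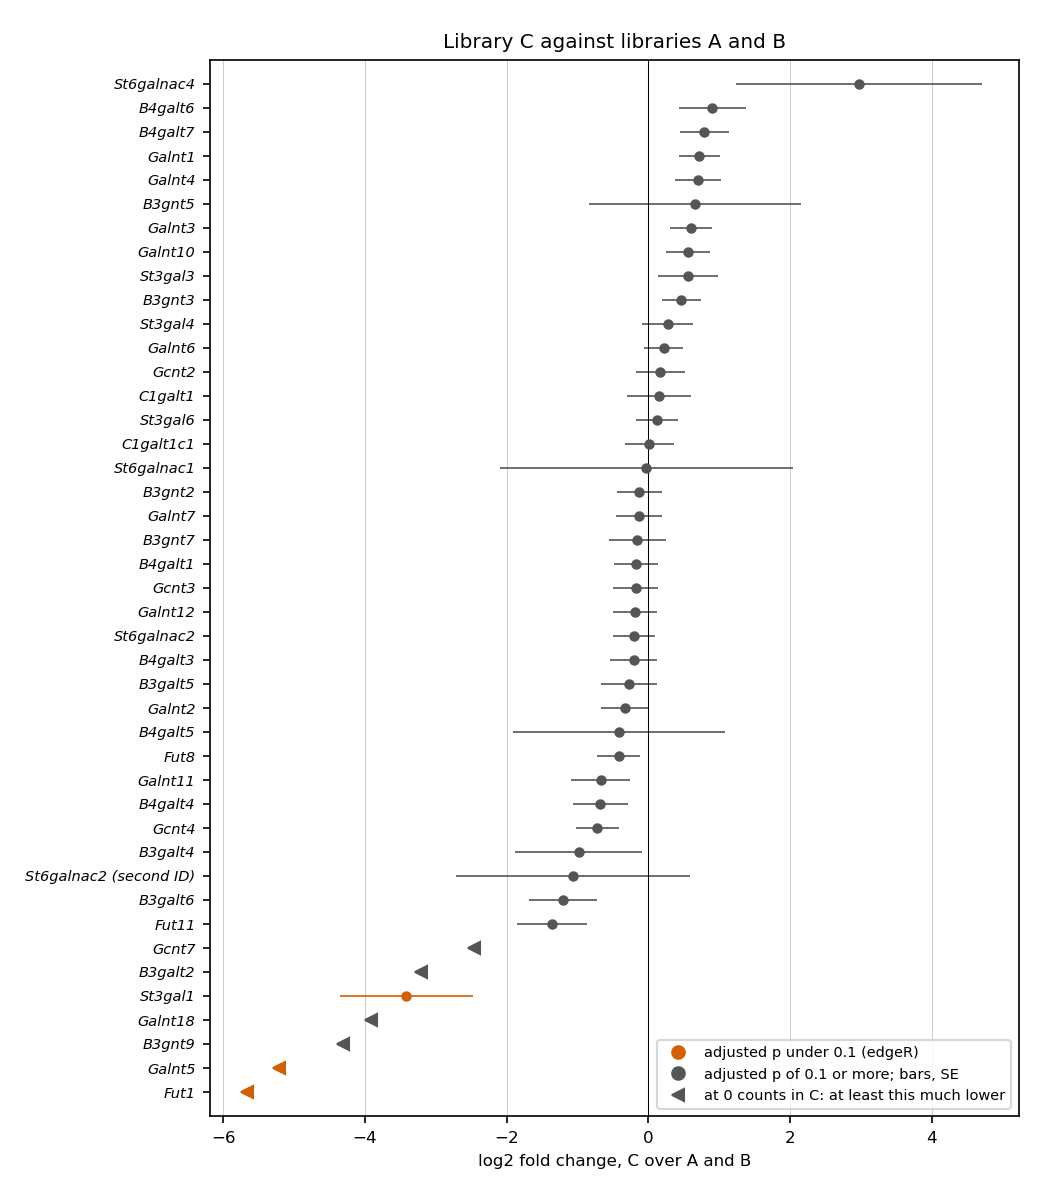
Each row is 1 of the 43 tested members. Points with bars of 1 SE give the fitted log2 fold change of C over A and B for members with counts in C. Arrowheads alone give the least fall for the 6 members at 0 counts in C, from 3 counts as the limit. Orange marks the 3 members at an adjusted p under 0.1 in edgeR, Fut1, Galnt5 and St3gal1, all on the left.

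Some markers of goblet and tuft cells were also lower in C. The calls stand against the background of all genes given for the edgeR test, and 8.03% of all genes tested were at 0 in C. The median log2 fold change was -0.37 over the goblet list, 0.03 over 8 enterocyte markers and 0.08 over 4 stem markers. Of 10 goblet markers 4 were called lower and 0 higher, Fcgbp, Clca1, Zg16 and the mucin Muc2, the last at 256, 219 and 50.4 CPM in A, B and C (log2 fold change -2.23, SE 0.32, adjusted p = 0.0228 from edgeR), and the list summed to 2660, 3376 and 2230 CPM. The other 6 were not called, with log2 fold changes from -0.58 for Tff3 to 0.67 for Spink4, and the goblet cell factors Spdef and Atoh1 had -0.02 and -0.16. Of 5 tuft markers 3 were called lower and 4 were at 0 in C, including Trpm5, the taste-type cation channel, at 298, 669 and 0 counts, and the list summed to 39.3, 51.9 and 5.27 CPM. None of the 6 Paneth or 4 enteroendocrine markers was called. Vim, a stromal marker at 46, 135 and 0 counts, was called lower as well, and Thy1, a marker of lymphocytes and stroma that was not called, held 16, 87 and 3 counts. Fewer cells of a type and less RNA per cell cannot be told apart in bulk libraries, and the part of these cells in the lower Fut1, Galnt5 and St3gal1 counts was not tested. Gcnt3 and Galnt6 were not called, which with 1 residual degree of freedom does not show unchanged levels. Their link to goblet or tuft cells in these cultures was not tested.

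Libraries A and B, 1 against 1, allow no test, and were compared by the difference of log2(CPM + 1). Among 43 members with 10 counts or more in these libraries together, B was higher by 1 or more for 3 and lower for 4. Over all genes those shares were 5.35% and 5.02%. The median difference of members was -0.22, against 0.00 over all genes, and the median size of the difference was 0.41 against 0.34.

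The 3 higher in B were Galnt18, with 0 counts in A and 73 in B (at least 19.1-fold), Galnt5 and St3gal1 (1.30 each). Galnt18 was again at 0 in C, so its signal lay in B alone. Among the 4 lower in B, B3gnt5, which starts lacto-series glycolipids, had 99, 4 and 127 counts in A, B and C, a difference of -2.46. St6galnac4, which adds a second sialic acid to core 1, had 28, 0 and 172 counts and was at least 11.9-fold lower in B than in A. For both genes B lay below A and C, which held similar counts of B3gnt5 but not of St6galnac4. B3galt4 had 183, 77 and 97 counts (-1.36), with A alone high. B4galt6, a lactosylceramide synthase of glycolipids, had 1028, 534 and 2134 counts (-1.26) and was lowest in B and highest in C.

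Of 30 members at a mean of 10 CPM or more, B4galt6 was the only one past 1. Its relative B4galt5, which makes the same product and was named after its values were seen, held 21, 40 and 31 counts.

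**Figure D4:**
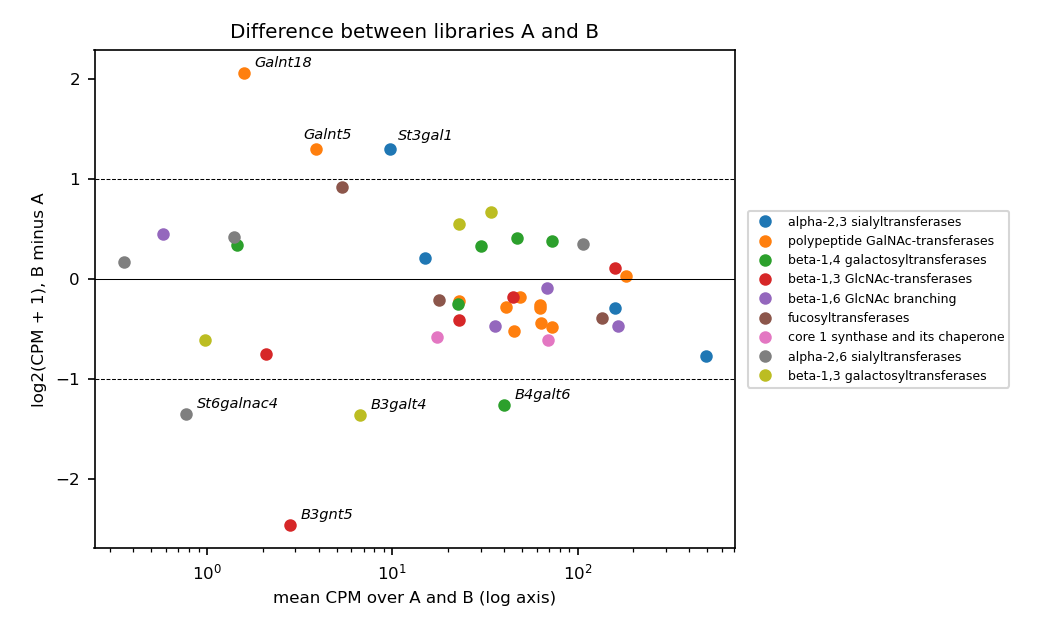
Each point is 1 of 43 members, with mean CPM over A and B on a log axis and the difference of log2(CPM + 1), B minus A, on the other, coloured by enzyme group. The dashed lines stand at 1 and -1, the 7 named members lie beyond them, and of these B4galt6 alone has a mean above 10 CPM.

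The enzymes need activated sugars, transporters and partner enzymes, and 57 such genes in 6 lists were read alongside, of which 47 were tested and 8 were at 0 in all libraries. Against the same background, 4 were lower in C and 0 higher, with a median log2 fold change of 0.03. GDP-fucose synthesis had the most abundant message, Gmds, which converts GDP-mannose on the way to GDP-fucose, at 373 CPM per kilobase in A, 339 in B and 307 in C. Tsta3, the next enzyme, was at 117, 119 and 150. In the salvage route, fucokinase (Fuk) had 688, 748 and 135 counts and fell in C (log2 fold change -2.90, SE 0.44, adjusted p = 0.0233 from edgeR). So of 4 genes of this list 1 was lower. Fpgt, the other gene of the salvage route and named after its values were seen, had 428, 459 and 701 counts. It was not called (log2 fold change 0.17, SE 0.38, adjusted p = 0.823 from edgeR).

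For the other sugars, Pgm1 was at 118, 75.6 and 79.0 CPM per kilobase. None of the 12 tested genes of this supply list was called. Cmas, which activates sialic acid, was at 115, 34.7 and 196, and the sialic acid synthase Nans at 37.7, 39.9 and 53.2. Cmas was low in B, as St3gal4 was, with a difference in log2(CPM + 1) of -1.71 from A, and its adjusted p in C was 0.196 from edgeR. None of the 5 tested genes of sialic acid supply was called.

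Of 10 Golgi transporters, the UDP-GlcNAc transporter Slc35d2 was lower in C, at 282, 73 and 7 counts (log2 fold change -5.23, SE 1.31, adjusted p = 0.0821 from edgeR), with A highest. Slc35a4 was at 79.3, 76.1 and 93.1 CPM per kilobase and Slc35b2, the carrier of the sulphate donor, at 86.8, 67.2 and 85.8. Of 9 tested terminal enzymes outside the families, B4galnt3, which makes GalNAc-capped LacdiNAc, was lower in C, at 65, 79 and 1 counts (log2 fold change -6.45, SE 1.71, adjusted p = 0.0942 from edgeR). B4galnt2, the enzyme of the Sd(a) antigen, was at 112, 104 and 85.2 CPM per kilobase and B4galnt1, the GM2 ganglioside synthase, at 75.0, 60.0 and 65.5. Both were near the level of St3gal6 or above it.

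Of 7 tested sulphation genes, Gal3st2, which sulphates galactose, was lower in C, at 186, 143 and 0 counts, at least 78.6-fold lower (fitted log2 fold change -10.58, SE 1.60, adjusted p = 0.0233 from edgeR). Papss2, a synthase of the sulphate donor, was at 101, 71.3 and 60.4 CPM per kilobase, and Chst4, which sulphates GlcNAc, at 60.2, 46.9 and 47.6. As in the enzyme families, the lower calls were of less abundant genes, here at 17.0 CPM per kilobase or less in each library, while the 2 most abundant genes of each list were not called.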

How the data were processed

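RNA-seq of IEC from 3 IEC + ILC3 co-cultures was used. Reads were trimmed by the authors (Trimmomatic 0.39), quantified by transcript with Salmon 0.14.1 on Ensembl release 98 of GRCm38.p6, and summarised per gene by tximport; the submitters' processing notes give the same versions. What was deposited are estimated counts per gene in whole numbers, which needed no rounding. Salmon divides reads shared between overlapping or similar transcripts by model. Symbols, coordinates, exons and lengths came from GENCODE M21 (GRCm38), and 35436 of 35824 identifiers received a symbol. Lengths are medians over protein-coding transcripts of the basic set. Promoter windows came from RefSeq (GRCm38.p6).

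CPM used TMM factors. For C against A and B, edgeR 4.0.16 (R 4.3.3) was run with filterByExpr, glmQLFit and glmQLFTest, and Benjamini-Hochberg adjustment over 13604 genes at 0.1, the paper's threshold. SEs were derived from the F statistic, as the absolute log2 change over its square root. DESeq2 1.42.0 was an alternative. Differences between A and B used log2(CPM + 1). A gene at 0 was given 3 counts per library as its limit. Intervals and limits cover counting error only. A and B are not copies, as they differed by a chi-square of 57.3 per gene over 16914 genes. The script was tested on simulated counts.

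Members and lists were chosen with earlier results of these data known. Named were the 3 most abundant members of each group per length, members called in C, members past 1 between A and B, members under 10 counts, and in each supply list the genes called and the 2 most abundant per length. Some genes that this rule or a marker list names are not reported here. Alternatives were other size factors, filters, thresholds, pseudocounts, lengths and removal of length or GC trends by loess (span 0.5). Python 3.11.15 (pandas 2.3.3, numpy 2.4.6, matplotlib 3.10.9) was used for tables and figures.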

Additional observations from a re-analysis of the deposited data

How the results depend on the processing

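Members lower in C numbered 3, and 5 with no filter on low counts, 1 with a filter of 10 counts in every library, 1 at an adjusted p under 0.05 and 0 with the length trend removed. The filter of 10 counts by its construction drops genes at 0 in C. The cause of the other shifts was not tested. Members higher in C numbered 0, and 2 with no filter, B4galt6 and St6galnac4. Over all genes the calls were 185 higher and 707 lower, 825 and 1577 with no filter, 11 and 169 with the length trend removed and 395 and 1223 with DESeq2. The 7 members past 1 between A and B became 2 with a pseudocount of 5 CPM. The sum per kilobase of 870 over A and B was 630 with the union of exons as length. It was 776 without A and 965 without B. Without 1 of A and B, the median over members ran from -0.21 to -0.08. These values are differences of log2(CPM + 1), not fitted fold changes, so their size cannot be set against the fitted median. They have no test, since no residual degrees of freedom remain, so calls could not be tested without A or B. Of 130 tested values of 23 members under other fits, 120 kept direction and side of the threshold, 5 gained a call and 5 lost one. The 46 values of single members without A or B are also differences of log2(CPM + 1) and have no test. Of these, 2 differed in sign from the fitted value, B3galt4 without A (0.017, fitted -0.99) and B3gnt5 without B (-0.25, fitted 0.66). Galnt18 was 0 without B, while Fut1, Galnt5 and St3gal1 stayed lower in C. Library C alone, added after the data were seen, changed the leading member in 1 of 9 groups. No paired analysis was possible because the 3 libraries belong to 1 condition. Depth limits the members under 10 counts, for which no difference could be read.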
